A study of Mus musculus with 24 samples.

Results

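The 45 genes described here encode the receptors with which cells hold on to matrix and to each other: 25 integrin chains, 6 cadherins, 7 receptors of the immunoglobulin superfamily, 4 tetraspanins, and CD44, EpCAM and the P-selectin ligand (Selplg). They were taken from a list of gene symbols, and all 45 had at least 1 probe, 73 probes in all, among 22911 gene symbols on the array. Their mRNA was measured with 1-colour Agilent mouse arrays in 7 cell lines of 2 syngeneic mouse models of tumour dormancy, in which tumour cells persist for long periods in mice that control them after immunotherapy. The melanoma lines derive from B16-F1 cells that carry GFP, and the mice had been immunised with irradiated tumour cells made to secrete a cytokine (GM-CSF for the melanoma, IL-12 for the leukemia). B16-M is the parental line (3 arrays), B16-D the dormant line recovered from such mice (4 arrays, of which replicate 2 was left out), and B16-D-733 (4 arrays), B16-D-735 (3 arrays) and B16-D-739 (3 arrays) are dormant lines of a second generation, which the study describes as coming from the brain. The leukemia lines are M0-p20 (4 arrays) and J365-p20 (3 arrays), which were read as parental DA1-3b myeloid cells and the dormant DA1-3b/D365 line because the series holds only that leukemia pair. The labels do not tie the numbers of the second-generation lines to the names that the protocol gives them. Each line was amplified in vitro before RNA extraction, the melanoma lines in DMEM with serum, so the values describe cultured cells. Nothing in the labels says that the arrays of a line came from separate cultures, and the p-values therefore measure only the spread between these arrays, which may be technical. Replicates 1 and 3 of B16-D-733 carry the same title number and share a slide. Their log2 signals differed with an SD of 0.341 over genes, the smallest of any pair of melanoma arrays of 1 line (0.436 to 0.966 for the others), so they may be repeat runs. They were kept as 2 arrays. A date stands in the titles of 3 of 4 B16-D and 3 of 4 B16-D-733 arrays and of no other array.

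Integrins are heterodimers of an alpha and a beta chain, and the pair decides the ligand: alpha chains such as Itga1 bind collagens, Itga6 laminins, and Itgav or Itga5 the RGD motif of fibronectin and vitronectin. Cadherins bind their own kind on neighbouring cells, receptors of the immunoglobulin family bind each other or leukocyte integrins, and tetraspanins gather integrins into membrane microdomains. In melanoma, Cdh2, Mcam, Alcam and the beta3 chain Itgb3 are known markers of invasive cells, while leukemic myeloid cells carry the beta2 and beta7 integrins of leukocytes.

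Levels are given as the log2 of the processed intensity minus the log2 of the 75th percentile of its array, for the brightest probe of each gene, so that 0 is the 75th percentile and each unit a doubling. Such a level compares arrays for 1 probe and not 1 gene with another. Detection in a line meant a probe well above background on 50% or more of that line's arrays. Between 46.0% and 55.8% of the spots were well above background on 23 arrays and 90.35% on B16-D replicate 2, which is why that array was left out. All 9 melanocyte markers examined were detected in the 5 melanoma lines and all 8 leukocyte markers in both leukemia lines, against 3 of 8 leukocyte markers (Coro1a, Runx1 and Csf2rb) in each melanoma line. The summed leukocyte marker signal lay between 0.697 and 1.07 times the 75th percentile on the melanoma arrays and between 79.5 and 109 times on the leukemia arrays, with Ptprc, Spi1 and Cd53 undetected in the melanoma lines.

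Of the 45 genes, 32 were detected in at least 1 melanoma line, 32 in at least 1 leukemia line and 27 in both models. The same overlap was not counted over all genes, so these counts are not a result particular to the receptors. A receptor counts as detected in both models when 1 line of each passes, whatever its level. Itgb5, for one, was above background on 2 of 3 J365-p20 arrays and on no M0-p20 array. In each melanoma line between 29 and 31 were detected, in M0-p20 31 and in J365-p20 30. By this rule 5 receptors were detected in melanoma lines and in no leukemia line: Alcam, Itga8, Itga9, Ncam1 and, in B16-D-735 only, Cdh1. The 5 detected in leukemia lines and in no melanoma line were Itga2b, Itgax, Itgb7, Icam1 and Selplg. Cdh3, Cdh5, Epcam, Vcam1, Itga2, Itga11, Itgb6 and Itgb8 were detected in no line.

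**Figure D1:**
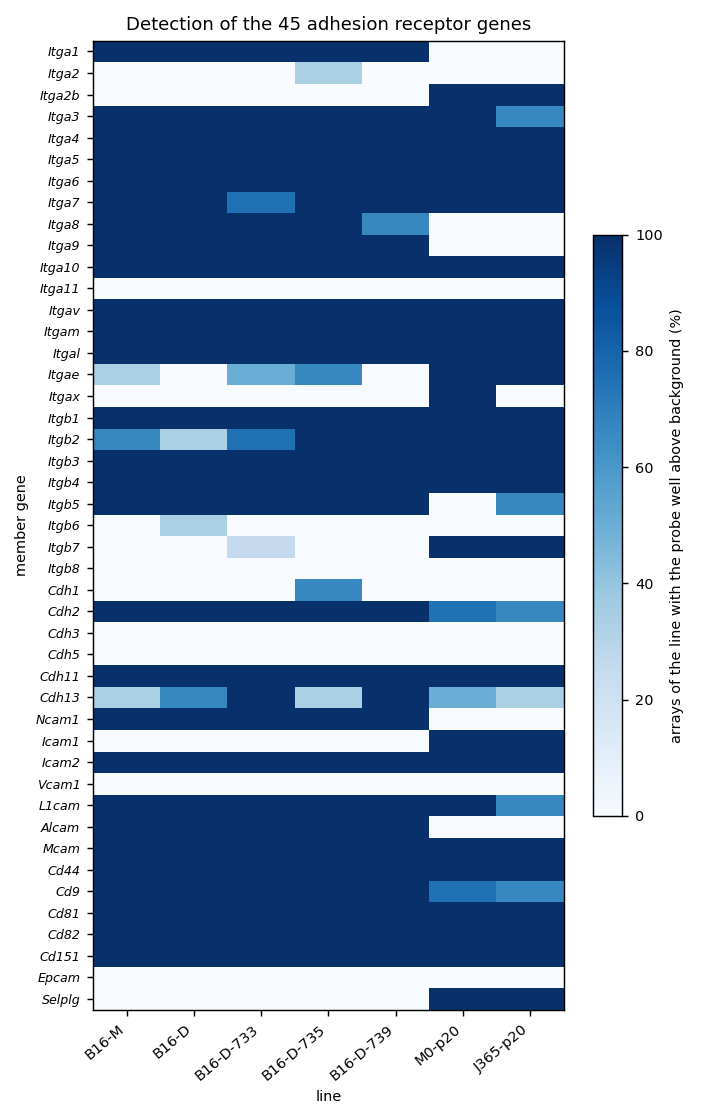
The 45 adhesion receptor genes (rows) in the 7 lines (columns), shaded by the percentage of a line's arrays on which the brightest probe was well above background, without B16-D replicate 2. The 5 melanoma columns are nearly alike, and Itga2b, Itgax, Itgb7, Icam1 and Selplg are dark in leukemia columns only, Itgax in that of M0-p20 alone.

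E-cadherin (Cdh1), the cadherin of epithelia and normal melanocyte contacts, was at or under the background in all lines but 1. B16-D-735 read -4.52, -4.98 and -4.61 on replicates 0, 1 and 2, of which replicates 0 and 2 were well above background, and no array of another line included in the fits was. Cdh1 was too dim to pass the filter, and was at least 1.15-fold higher in B16-D-735 than in B16-M. With no filter on dim probes it was called in B16-D-735 against B16-M and against B16-D, and also in B16-D-733 against B16-M, neither of which had an array above background. On B16-D replicate 2, the array left out, Cdh1 read -2.09 and was above background.

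The first comparison asked which adhesion receptors differ between the dormant melanoma line and its parental cells. Of the 45 genes, 31 passed the filter on dim probes in the melanoma lines, and 14 did not (Cdh1, Cdh3, Cdh5, Epcam, Icam1, Itga2, Itga2b, Itga11, Itgax, Itgb6, Itgb7, Itgb8, Selplg and Vcam1). In B16-D against B16-M, 3 fell (Cd82, Itga9 and Icam2) and 1 rose (Cd9) at an adjusted p under 0.05 in limma, where over all 24316 genes tested 1.61% fell and 2.03% rose. The leukocyte marker sum was 0.994 to 1.07 in B16-M and 0.697 to 0.810 in B16-D. A sum of 7 brain markers, of which 6 were detected in every melanoma line, was 14.6 to 15.4 in B16-M, 8.27 to 9.77 in B16-D, 12.3 to 14.8 in B16-D-733, 13.4 to 14.8 in B16-D-735 and 9.74 to 11.7 in B16-D-739. The part of these markers in the results was not tested. The median log2 fold change of the 31 was -0.17, beside -0.04 over all genes tested.

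Cd82, a tetraspanin known as a suppressor of metastasis, had the largest change. On replicates 0, 1 and 2 of B16-M it read 2.98, 2.82 and 3.20, and on replicates 0, 1 and 3 of B16-D 1.69, 1.22 and 0.96. Every B16-D array lay more than 1 unit below every B16-M array. In bulk RNA, fewer cells with the transcript and less of it per cell cannot be told apart. The log2 fold change was -1.71 ± 0.17 (SE), 3.27-fold lower, with an adjusted p of 7.62e-05 in limma, and the array left out, B16-D replicate 2, read 0.81. With the title date as a block the change was -1.49 (adjusted p 0.000679). All 4 Cd82 probes fell, by 1.71, 1.69, 1.49 and 1.58 on the log2 scale. The Cd82 level fell as well in 2 of the 3 second-generation lines, to between 0.62 and 0.82 on the 4 arrays of B16-D-733 and to between 1.33 and 1.55 on the 3 arrays of B16-D-739. Against B16-M the log2 fold changes were -2.27 ± 0.16 (adjusted p 1.2e-06 in limma) in B16-D-733 and -1.58 ± 0.17 (adjusted p 9.19e-05) in B16-D-739. B16-D-735 read 2.78, 2.98 and 3.03 on replicates 0, 1 and 2, inside or just below the range of the parental arrays, with a log2 fold change of -0.07 ± 0.17 (adjusted p 0.974). Set against B16-D itself, Cd82 in B16-D-735 was higher by 1.64 ± 0.17 on the log2 scale (adjusted p 4.8e-05), and the ranges did not overlap.

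Cd9, a tetraspanin that associates with beta1 integrins, ran the other way. B16-M arrays read 1.17, 0.88 and 1.20 and B16-D arrays 2.35, 1.86 and 1.49, without overlap. The rise was 0.81 ± 0.20 on the log2 scale (1.76-fold, adjusted p 0.0432 in limma). B16-D-733 read between 1.74 and 2.24 and B16-D-739 between 1.76 and 1.98, rises of 0.86 ± 0.19 (adjusted p 0.0158) and 0.81 ± 0.20 (adjusted p 0.0415). The B16-D-735 arrays stayed at 1.15, 1.43 and 1.23, with a difference from B16-M of 0.19 ± 0.20 (adjusted p 0.819). These Cd9 calls lay close to the threshold. In B16-D the call was lost on leaving out any of 5 of the 6 arrays (each B16-M array, B16-D replicate 0 or replicate 1; adjusted p up to 0.182), in B16-D-739 on leaving out any of the 6 (up to 0.181), and in B16-D-733 only without B16-M replicate 1 (0.0885). With B16-D-733 replicates 1 and 3 averaged as 1 array the calls of B16-D and B16-D-739 were lost (0.0548 and 0.0525). Cd151, another tetraspanin that binds laminin-binding integrins, passed in none of these comparisons, and differed by 0.10 ± 0.14 in B16-D.

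The upstream sequences of Cd82 and Cd9, tetraspanins that changed in opposite directions in the same 3 dormant lines, are shown from RefSeq (GRCm38.p6), 250 bases ending just before the annotated start at the outer end of each gene, 5′ to 3′ on the minus strand, on which both genes lie. They cover chr2:93462951-93463200 for Cd82 and chr6:125494761-125495010 for Cd9. Capitals mark the matches to any of the motifs searched on both strands: GGGCGG (the GC box of Sp1), CACGTG and CATGTG (E-boxes), TATAAA, and TGANTCA (AP-1), which did not overlap one another in these windows.
Cd82: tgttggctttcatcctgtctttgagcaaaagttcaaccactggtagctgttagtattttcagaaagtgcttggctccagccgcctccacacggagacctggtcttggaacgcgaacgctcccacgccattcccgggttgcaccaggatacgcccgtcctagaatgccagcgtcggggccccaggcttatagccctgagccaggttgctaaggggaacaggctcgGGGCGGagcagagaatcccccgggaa
Cd9: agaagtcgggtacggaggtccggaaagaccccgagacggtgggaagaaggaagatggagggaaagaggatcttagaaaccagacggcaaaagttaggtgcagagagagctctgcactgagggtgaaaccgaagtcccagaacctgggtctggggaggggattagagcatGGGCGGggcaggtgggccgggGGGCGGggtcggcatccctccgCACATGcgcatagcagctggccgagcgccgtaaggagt
Cd82 held 1 match to GGGCGG, a motif found in 32.7% of the 32851 mouse promoter windows of this length. Cd9 held 2 matches to it and 1 to CATGTG, present in 12.3% of windows. Neither held CACGTG (6.02% of windows), TATAAA (12.4%) or TGANTCA (6.75%). The same table listed 3 further Cd82 starts inside the gene. A match is a string of letters in the window, and says nothing about binding in these cells.

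Among the integrins, Itga9 had the only call in B16-D. Its chain pairs with Itgb1 and binds tenascin C and osteopontin. Readings were 0.33, 0.36 and 0.58 in B16-M and -0.46, -0.85 and -0.79 in B16-D, with all dormant arrays below the parental ones. The fall of Itga9 was 1.12 ± 0.14 on the log2 scale (2.18-fold, adjusted p 0.00053 in limma). B16-D-733 read between -0.89 and -0.61, a log2 fold change of -1.21 ± 0.13 (adjusted p 8.05e-05), and B16-D-739 between -0.59 and -0.24, a log2 fold change of -0.80 ± 0.14 (adjusted p 0.00484). In B16-D-735 Itga9 lay between -0.02 and 0.26, below the 3 parental arrays but with a difference of -0.27 ± 0.14 that did not pass (adjusted p 0.373). Against B16-D, the Itga9 level of B16-D-735 was higher by 0.85 ± 0.14 (adjusted p 0.00219). The other Itga9 probe fell by 0.72 in B16-D, 1.10 in B16-D-733 and 0.59 in B16-D-739 on the log2 scale. Its partner Itgb1, the common beta chain, lay between 5.10 and 5.17 in B16-M and between 5.12 and 5.46 in B16-D, a difference of 0.09 ± 0.13 (adjusted p 0.786).

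Cd82 and Itga9 were called in each of B16-D, B16-D-733 and B16-D-739 against B16-M, but these comparisons share the parental arrays. Within slides, the 3 glass slides that carried the arrays, the Cd82 difference from B16-M ran from -2.52 to -1.49 and that of Itga9 from -1.39 to -0.65 over these 3 lines. With slide as a block the B16-D log2 fold changes were -1.79 for Cd82 and -1.17 for Itga9. No call on either gene in these comparisons was lost on leaving out 1 array, whereas with only the 6 arrays of B16-D and B16-M in the fit neither passed (adjusted p 0.07 for Cd82 and 0.0947 for Itga9), nor did Itga9 with only the arrays of B16-D-739 and B16-M (0.0652).

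**Figure D2:**
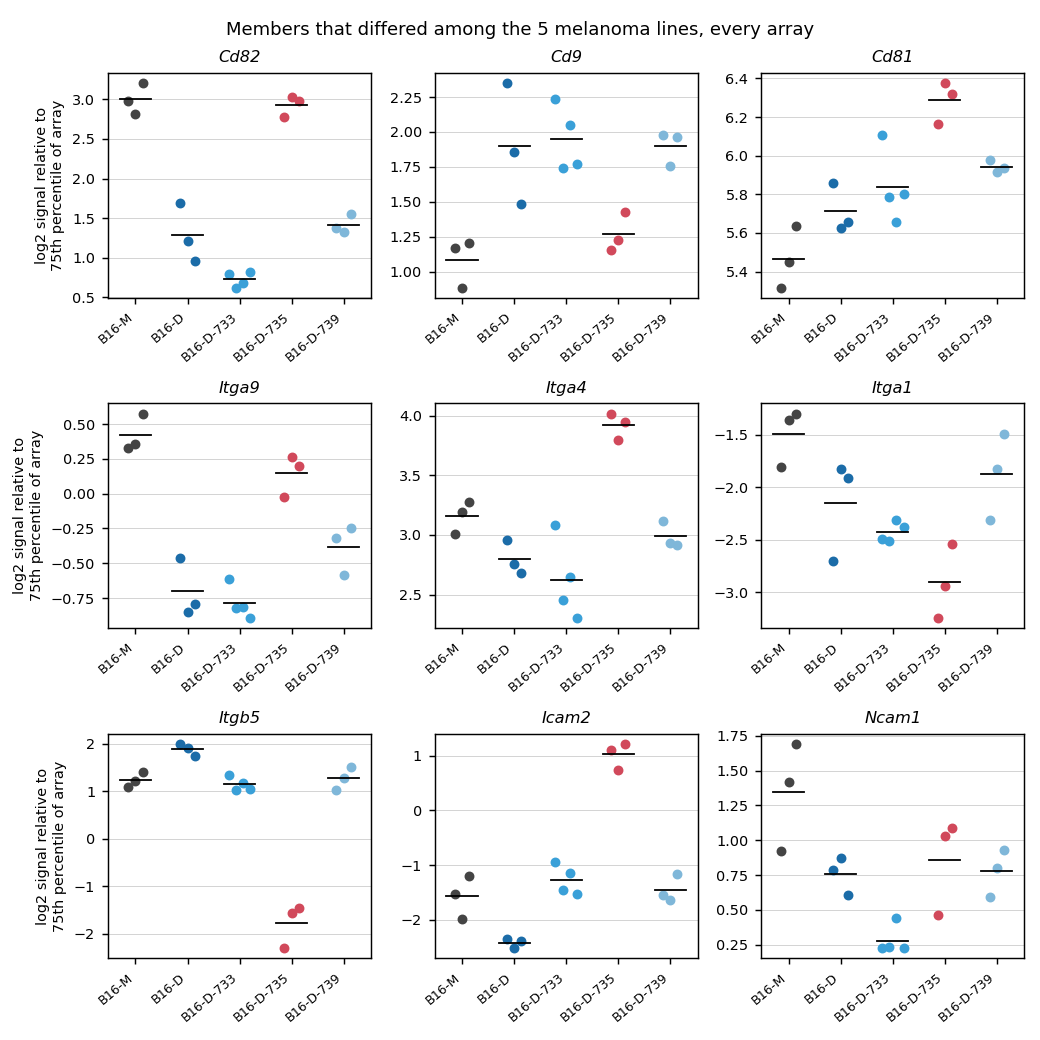
Log2 signal relative to the 75th percentile of the array (vertical axis, a separate scale for each gene) for the 9 receptors that differed among the 5 melanoma lines, with a point for each array and a line at the mean. Cd82 and Itga9 are low and Cd9 high in B16-D, B16-D-733 and B16-D-739, while Itgb5, Icam2 and Itga4 set B16-D-735 apart.

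Icam2, an immunoglobulin-family receptor that the leukocyte integrin of Itgal and Itgb2 binds, fell in B16-D. B16-M read -1.53, -1.98 and -1.20 and B16-D -2.35, -2.52 and -2.39, without overlap. The fall of Icam2 in B16-D was 0.85 ± 0.22 on the log2 scale with an adjusted p of 0.0486 in limma, and the call remained only when B16-M replicate 1 was left out (adjusted p up to 0.168 without another array). The array left out of the fits read -1.87, inside the B16-M range. In B16-D-733 the arrays lay between -1.53 and -0.95, and in B16-D-739 between -1.63 and -1.17, and neither line differed from B16-M by the test (0.30 ± 0.20 and 0.12 ± 0.22, adjusted p 0.535 and 0.955).

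The 7 other tested members of the immunoglobulin and tetraspanin families and CD44 (L1cam, Alcam, Mcam, Ncam1, Cd44, Cd81 and Cd151) did not pass in B16-D, with log2 fold changes between -0.59 and 0.43. The cadherins Cdh2, Cdh11 and Cdh13 had log2 fold changes between 0.07 and 0.35, and Cdh2, the N-cadherin of melanoma, read 3.79, 3.82 and 3.71 in B16-D beside 3.34, 3.21 and 3.72 in B16-M (0.35 ± 0.16, adjusted p 0.306). The laminin-binding chains Itga3, Itga6, Itga7 and Itgb4 lay between -0.57 and 0.48. The beta3 chain Itgb3, which pairs with Itgav to bind vitronectin, had uneven readings: 2.64 on B16-D replicate 0 against -0.13 and -0.46 on the other two B16-D arrays of the fit, with a log2 fold change of -0.18 ± 0.63 (adjusted p 0.909).

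B16-D-733 had 4 receptors that fell and 1 that rose, where 2.4% and 3.19% of all genes did so in limma at an adjusted p under 0.05. Besides Cd82, Itga9 and Cd9, the 2 others were Ncam1, the neural cell adhesion molecule, and Itga1, whose chain pairs with Itgb1 to bind collagen IV. Ncam1 read 0.92, 1.42 and 1.69 in B16-M and 0.23, 0.23, 0.44 and 0.23 in B16-D-733, a fall of 1.07 ± 0.19 on the log2 scale (adjusted p 0.00401) without overlap. All 4 Ncam1 probes were lower in B16-D-733, by 1.07, 1.14, 0.70 and 0.37. Against B16-M the Ncam1 differences of B16-D (-0.59 ± 0.20), B16-D-735 (-0.48 ± 0.20) and B16-D-739 (-0.57 ± 0.20) did not pass, though with slide as a block that of B16-D did. Itga1 read -2.49, -2.51, -2.31 and -2.38 in B16-D-733, below the -1.81, -1.36 and -1.30 of B16-M. Its fall was 0.94 ± 0.25 (adjusted p 0.0443) and the call remained only without B16-M replicate 0, being lost on leaving out any of the 6 other arrays (adjusted p up to 0.176) or with replicates 1 and 3 of B16-D-733 as 1 array (0.0973). With slide as a block 8 receptors were called in this comparison, the 5 named and Itga4, Itga10 and Itgb4. The median over the 31 was -0.09 beside 0.03 over all genes.

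B16-D-739 had 2 that fell (Cd82 and Itga9) and 1 that rose (Cd9), where 1.55% and 2.16% of all genes did. Same-numbered arrays of B16-D-739 and B16-M shared a slide, and with the number as a block 5 receptors were called, the 3 named with Ncam1 and Itgb4. The other 28 tested receptors had log2 fold changes between -0.57 and 0.82, the ends held by Ncam1 and L1cam. The median was -0.02, beside 0.00 over all genes.

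B16-D-735 had a different set. Against B16-M, 3 receptors fell (Itgb5, Itga1 and Itgav) and 3 rose (Icam2, Cd81 and Itga4), where 1.97% and 3.09% of all genes did in limma. The median of the 31 was 0.02, beside -0.01 over all genes. Of 7 fibroblast markers, 3 were detected in this line (Col1a1, Dcn and Pdgfrb), with a summed signal of 0.359 to 0.712. In the other melanoma lines 1 or 2 of 7 were detected, with 0.119 to 0.480. The sum of B16-D-733, 0.209 to 0.480, overlapped that of B16-D-735. Pdgfrb was detected also in B16-D, B16-D-733 and B16-D-739, and only Col1a1 and Dcn in no other melanoma line. Pdgfra, of the same list, went the other way, being detected in the other 4 melanoma lines and not in B16-D-735. Their part in the results was not tested.

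Itgb5, the beta5 chain that pairs with Itgav in a vitronectin receptor, had the largest fall. Readings were 1.09, 1.22 and 1.40 in B16-M and -2.30, -1.45 and -1.56 on replicates 0, 1 and 2 of B16-D-735, all still above background. The Itgb5 log2 fold change was -3.0 ± 0.20, 8.02-fold lower, with an adjusted p of 1.22e-06 in limma. In B16-D Itgb5 read 2.00, 1.90 and 1.74, in B16-D-733 between 1.02 and 1.35 and in B16-D-739 between 1.02 and 1.51, so that every array of the 4 other melanoma lines was more than 2 units above every B16-D-735 array. The B16-D difference from B16-M, 0.64 ± 0.20, did not pass (adjusted p 0.113), and B16-D-735 was 12.5-fold below B16-D (log2 fold change -3.65 ± 0.20, adjusted p 3.72e-07). A single probe measured Itgb5.

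Its partner Itgav read 3.70, 3.61 and 3.63 in B16-M and 3.18, 3.34 and 3.09 in B16-D-735. The fall of 0.44 ± 0.12 on the log2 scale had an adjusted p of 0.0454 and was lost on leaving out any 1 of the 6 arrays (adjusted p up to 0.155). Against B16-D the Itgav difference was -0.16 ± 0.12 (adjusted p 0.538). Itgb3, another beta chain with which Itgav pairs, read 1.78, 0.76 and 0.53 in B16-D-735, and its difference from B16-M was 0.16 ± 0.63 (adjusted p 0.992).

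Icam2 moved the opposite way in this line. B16-D-735 read 1.11, 1.22 and 0.74, above every array of the other melanoma lines, of which the highest was -0.95. The Icam2 rise was 2.60 ± 0.22 on the log2 scale over B16-M (6.05-fold, adjusted p 7.91e-06 in limma) and 3.45 ± 0.22 over B16-D (10.9-fold, adjusted p 8.73e-07). The leukemia lines read between 1.93 and 3.27 with the same probe. Icam2 is also a gene of endothelium and leukocytes. Of 6 endothelial markers, 2 (Pecam1 and Eng) were detected in each of the 7 lines, with a summed signal of 6.55 to 9.03 times the 75th percentile in B16-D-735 and 5.99 to 9.14 in the other melanoma lines. The leukocyte sum was 0.800 to 0.863 in B16-D-735, beside 0.994 to 1.07 in B16-M and 0.697 to 0.873 in the other dormant melanoma lines. The part of these markers in the Icam2 rise was not tested.

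Itga4 and Cd81 also rose. Itga4, whose chain binds VCAM-1 and fibronectin with Itgb1, read 3.01, 3.19 and 3.27 in B16-M and 4.02, 3.95 and 3.80 in B16-D-735. That difference was 0.76 ± 0.17 on the log2 scale (adjusted p 0.0216), and leaving out B16-M replicate 0 or 1 or B16-D-735 replicate 0 or 1 took the call away (adjusted p up to 0.0863). Over B16-D, where Itga4 read 2.95, 2.76 and 2.68, the difference was 1.12 ± 0.17 (adjusted p 0.00134), with a call on leaving out any 1 array. Cd81, a tetraspanin that associates with integrins, rose from 5.32, 5.45 and 5.64 to 6.17, 6.32 and 6.37, by 0.82 ± 0.13 (adjusted p 0.00183). The second probe of each gene moved the same way, by 0.52 for Itga4 and 1.05 for Cd81. Itgb1 itself differed from B16-M by 0.29 ± 0.13 (adjusted p 0.28).

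Itga1 had its lowest readings in this line, -3.24, -2.54 and -2.93, against -1.81, -1.36 and -1.30 in B16-M. The Itga1 fall of 1.42 ± 0.26 (2.67-fold, adjusted p 0.00621 in limma) held without any 1 array, and the other probe fell by 1.20. The differences of Itga1 in B16-D (-0.66 ± 0.26, adjusted p 0.221) and B16-D-739 (-0.39 ± 0.26, adjusted p 0.634) did not pass.

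Upstream windows of 3 receptors that moved in B16-D-735, Itgb5 that fell and Itga4 and Cd81 that rose, are given from the same table and with the same motifs in capitals. All lie on the plus strand, at chr16:33829415-33829664 for Itgb5, chr2:79255176-79255425 for Itga4 and chr7:143052500-143052749 for Cd81.
Itgb5: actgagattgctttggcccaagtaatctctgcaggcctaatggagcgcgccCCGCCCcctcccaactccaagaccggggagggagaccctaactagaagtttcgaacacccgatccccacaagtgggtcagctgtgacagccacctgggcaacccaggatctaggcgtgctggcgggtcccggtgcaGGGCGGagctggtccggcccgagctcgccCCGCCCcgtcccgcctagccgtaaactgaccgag
Itga4: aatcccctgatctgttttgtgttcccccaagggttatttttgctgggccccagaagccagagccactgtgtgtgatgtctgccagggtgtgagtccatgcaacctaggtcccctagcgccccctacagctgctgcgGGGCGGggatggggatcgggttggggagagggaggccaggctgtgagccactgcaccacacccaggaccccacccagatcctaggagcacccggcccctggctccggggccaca
Cd81: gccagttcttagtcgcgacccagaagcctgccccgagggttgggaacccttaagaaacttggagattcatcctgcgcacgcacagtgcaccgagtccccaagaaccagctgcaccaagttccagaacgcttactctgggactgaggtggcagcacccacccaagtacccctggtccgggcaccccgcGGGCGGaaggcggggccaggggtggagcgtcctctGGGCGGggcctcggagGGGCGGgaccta
Itgb5 and Cd81 held 3 matches each to GGGCGG on either strand and Itga4 held 1, and none of the other motifs was found in the 3 windows.

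**Figure D3:**
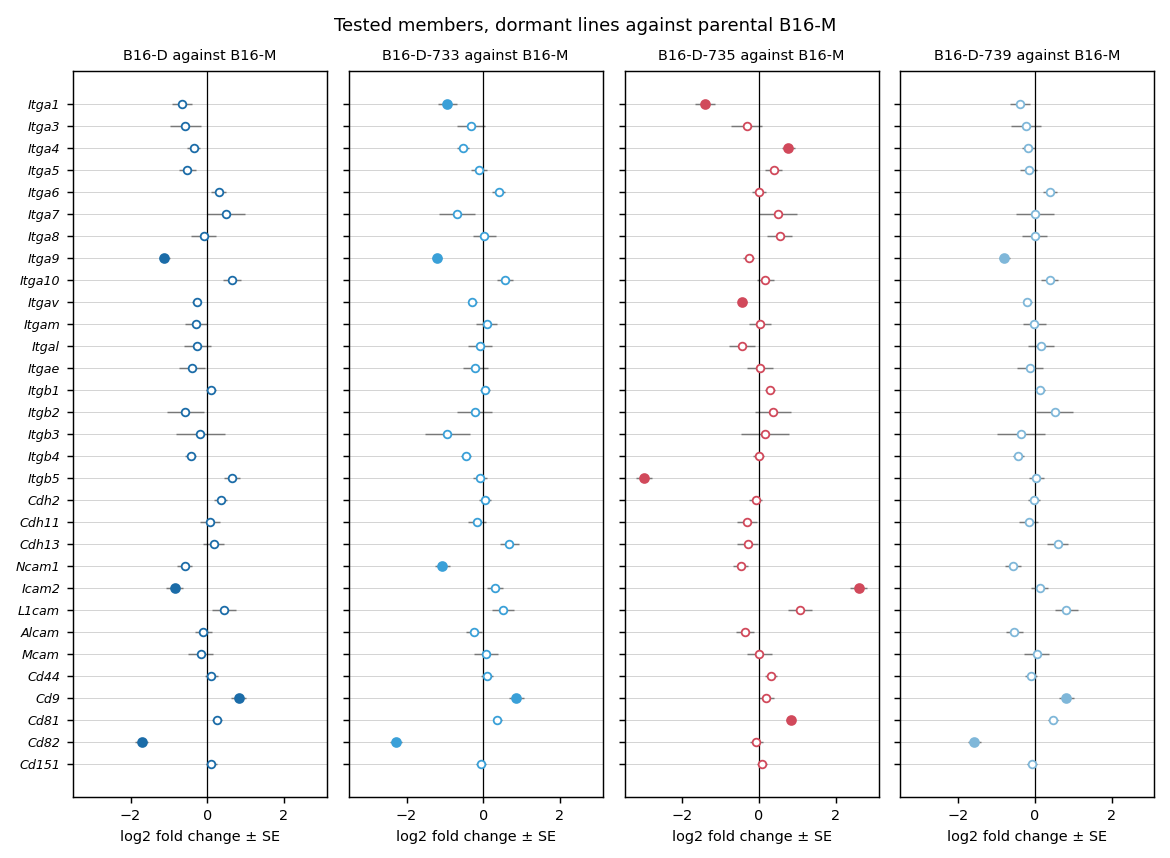
Log2 fold change with its standard error (horizontal axis) of the 31 tested receptors (rows) in each dormant melanoma line against B16-M, filled where the adjusted p in limma was under 0.05. Cd82 is at -1.71, -2.27, -0.07 and -1.58 and Itgb5 at 0.64, -0.09, -3.0 and 0.03 in the panels from left to right.

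The second-generation lines were also set against B16-D, the first dormant line. B16-D-735 had 6 receptors that were higher (Icam2, Cd82, Itga4, Itga5, Itga9 and Cd81) and 1 that was lower (Itgb5), where 4.09% and 3.96% of all genes were in limma. The median of the 31 was 0.20, beside 0.04 over all genes. Itga5, the alpha chain of the fibronectin receptor, was called in no other comparison of melanoma lines. It read -1.29, -1.02 and -1.50 in B16-D-735 and -1.59, -2.36 and -2.60 in B16-D, a difference of 0.91 ± 0.22 (adjusted p 0.0254), while B16-M read -1.58, -1.67 and -1.72. The undated B16-D array is the one at -1.59, and with the title date as a block the Itga5 difference was 0.51 (adjusted p 0.148) and that of Cd81 0.38 (adjusted p 0.0999). The Itga5 and Cd81 calls (Cd81 0.57 ± 0.13, adjusted p 0.0159) were each lost on leaving out any of 4 of the 6 arrays, B16-D replicate 1 or 3 and a pair of B16-D-735 arrays (adjusted p up to 0.099 and 0.0719).

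In B16-D-733 against B16-D 1 receptor was higher, Icam2, and none was lower, where 0.407% and 0.0699% of all genes were. The Icam2 difference was 1.15 ± 0.20 on the log2 scale (adjusted p 0.0205 in limma), and the call was lost on leaving out any B16-D array or B16-D-733 replicate 0 or 2 (adjusted p up to 0.111) and when B16-D replicate 2 was added. B16-D-739 had no receptor called in either direction against B16-D in limma, where 0.239% of all genes were higher and 0.0781% lower. At an unadjusted p under 0.05, 5 of the 31 differed, and Icam2 had the smallest p (0.97 ± 0.22, adjusted p 0.109).

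Across the 5 melanoma lines at once, an F test in limma called 9 of the 31 receptors, where 9.98% of all genes were called: Itgb5, Cd82, Icam2, Itga9, Itga4, Cd81, Cd9, Itga1 and Ncam1. Adjusted p ran from 6.27e-07 for Itgb5 to 0.0229 for Ncam1. The 22 others, among them all 3 tested cadherins, Cd44, Cd151, Itgb1 and the laminin-binding chains, did not pass. Itgb4 did with slide, title number or title date as a block, with a stricter filter on dim probes and without B16-D-733 replicate 2. The cadherin Cdh13 passed with the mean of all probes and without B16-M replicate 2, and Itga5 without B16-D replicate 0. The Ncam1 call was lost with no filter on dim probes, the title date as a block or B16-D-733 replicates 1 and 3 as 1 array. It was also lost without B16-M replicate 1 or 2 or B16-D-733 replicate 0, 1 or 3. That of Itga1 was lost without B16-M replicate 1 or 2 or B16-D-735 replicate 0 or 2, and that of Cd9 without B16-M replicate 1. Leukocyte chains were measured in the melanoma lines too. Itgam, the alpha chain of the complement receptor, read between 1.42 and 2.82 over the melanoma arrays with the brighter probe, a second probe being above background on fewer arrays, while its partner Itgb2 lay between -5.29 and -2.85 and was above background on some arrays only. Of 6 macrophage markers, 3 (Csf1r, C1qb and Cd68) were detected in every melanoma line, with a sum of 1.22 to 3.72. Their part in the Itgam signal was not tested.

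The molecules around the receptors were counted from lists of the integrin adhesion complex, the cadherin complex, matrix and other ligands, and other tetraspanins. Against B16-M, 1 of 25 tested genes of the integrin adhesion complex passed in B16-D-733 and B16-D-739 (Fblim1, a filamin-binding protein of adhesion sites, higher), 1 in B16-D-735 (the talin Tln2, lower by 0.96 ± 0.13, adjusted p 0.000709) and 0 in B16-D. Fblim1 was at least 2.10-fold higher in B16-D-733 and at least 2.50-fold higher in B16-D-739, since no B16-M array was above background. These counts are near the shares over all genes, 3.19% and 2.4% in B16-D-733, 3.09% and 1.97% in B16-D-735 and 2.16% and 1.55% in B16-D-739, higher and lower. None of the tested cadherin complex genes passed in a dormant melanoma line.

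Of 19 tested matrix and other ligands, 1 rose in B16-D, 3 rose in B16-D-733, 3 rose and 2 fell in B16-D-735, and 2 rose and 1 fell in B16-D-739, where between 2.03% and 3.19% of all genes rose and between 1.55% and 2.4% fell, so that the single call in B16-D is near the share over all genes. Col4a1, a chain of the basement membrane collagen IV that Itga1 binds, was not above background on any B16-M array, and was at least 9.54-fold higher in B16-D and at least 8.55-fold higher in B16-D-739 (adjusted p 8.39e-08 and 4.29e-08 in limma). In B16-D-733 Col4a1 was above background on all 4 arrays, with a mean of -1.48 beside -1.65 in B16-D and -1.81 in B16-D-739 (adjusted p 8.21e-09 against B16-M). In B16-D-735 it was above background on no array, at least 10.8-fold below B16-D, and its call there against B16-M has no fold, since neither line was above background. Col4a1 thus entered the fit through B16-D, B16-D-733 and B16-D-739 alone, and its calls in those lines restate its detection there. Lamb1, a laminin beta chain, rose by 2.00 ± 0.41 in B16-D-733 and 2.35 ± 0.43 in B16-D-739, and Lama5, a laminin alpha chain, fell by 2.13 ± 0.27 in B16-D-735. Spp1, the osteopontin that Itga9, Itga4 and Itgav bind, rose by 1.42 ± 0.24 in B16-D-733 and 1.55 ± 0.25 in B16-D-735. Of 19 other tetraspanins tested, those that passed against B16-M all fell: Tspan32 in each dormant line (by 1.45, 1.49, 1.22 and 1.38 on the log2 scale), Tspan7 in B16-D and B16-D-733 and Tspan10 in B16-D-739.

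In the leukemia the question was the same, dormant J365-p20 against parental M0-p20, and 31 of the 45 receptors were tested. One fell, Itgax, and none rose, where 0.582% and 0.499% of all 23036 genes did in limma. The median log2 fold change of the 31 was -0.10, beside -0.02 over all genes. Itgax, the alpha chain of a beta2 integrin of myeloid and dendritic cells (CD11c), read -2.96, -1.44, -1.65 and -1.79 on the 4 M0-p20 arrays, all above background. J365-p20 read -6.78, -5.78 and -5.69, none above background, so Itgax was at least 7.28-fold lower (measured means -1.96 and -6.08, adjusted p 0.00378 in limma). Itgax entered this fit through the M0-p20 arrays alone, so its call restates its detection in that line. Every M0-p20 array read above every J365-p20 array, and the call was kept on leaving out any 1 of the 7 arrays. With a normexp background correction, the log2 fold change was -1.47 (adjusted p 0.0642). A second Itgax probe was above background on no array of either line.

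The beta2 partner Itgb2 read between 0.72 and 1.84 in M0-p20 and between 1.51 and 2.01 in J365-p20 (0.34 ± 0.29, adjusted p 0.974), and the other alpha chains of Itgb2, Itgam and Itgal, differed by -0.27 ± 0.33 and 0.33 ± 0.20. At an unadjusted p under 0.05, 5 receptors differed: Itgax, Itga4 (-0.71 ± 0.21), Itga7 (0.77 ± 0.19), Icam2 (-0.72 ± 0.24) and Cd81 (0.63 ± 0.18), of which the last 4 failed the adjustment (adjusted p 0.362, 0.234, 0.472 and 0.34). Cd82 read between 2.58 and 3.32 in M0-p20 and between 2.81 and 2.93 in J365-p20 (-0.07 ± 0.21, adjusted p 0.984). Among the pathway lists, only the matrix glycoprotein Thbs1 passed, at least 2.73-fold lower in J365-p20 (adjusted p 0.0226), with 0 of 22 genes of the integrin adhesion complex called. Thbs1 was above background on 3 M0-p20 arrays and on no J365-p20 array. As for Itgax, its call thus restates its detection in M0-p20.

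**Figure D4:**
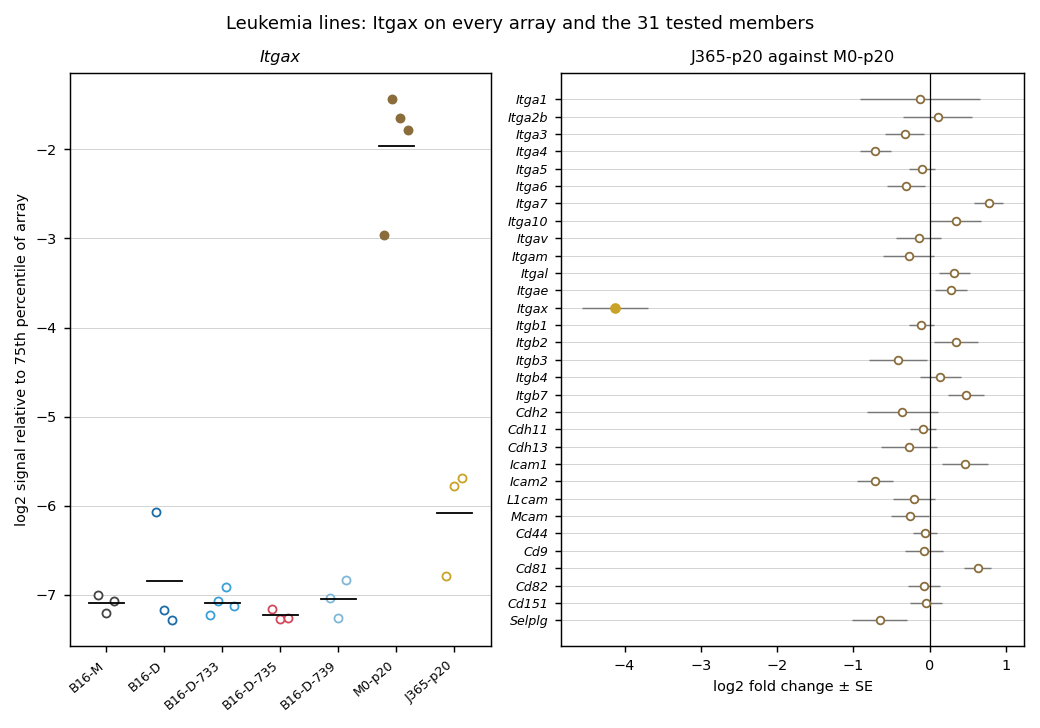
Left, log2 signal of Itgax relative to the 75th percentile on every array of the 7 lines, open where not well above background, with a line at the mean. Right, log2 fold change with its standard error of the 31 receptors tested in J365-p20 against M0-p20, filled where the adjusted p was under 0.05: Itgax at -4.13 is the only filled point, and its size depends on readings at background.

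Whether the dormant change differed between the models was tested in 1 fit of both, with 36 receptors. Of these, 2 differed, where 2.31% of all 26460 genes did in limma. For Cd82 the log2 fold change in B16-D minus that in J365-p20 was -1.64 ± 0.26 (adjusted p 0.000677). Itgax was the other one (adjusted p 1.13e-05), but no B16-M, B16-D or J365-p20 array was above background, so the size of its difference was not measured and only the bound on the leukemia fall is given.

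The parental lines B16-M and M0-p20 differed in most of the receptors tested. Of 36, 17 were higher in B16-M and 14 higher in M0-p20, where 25.5% and 31.2% of all genes were in limma. A receptor above background in 1 model only entered this fit through that model, so its call restates its detection. No M0-p20 array was above background for Alcam, Ncam1, Itgb5, Itga9 and Itga8, which were at least 139-fold, 64.5-fold, 59.7-fold, 34.0-fold and 1.31-fold higher in B16-M. The 2 Itga1 probes disagreed: the one used here was at least 9.05-fold higher in B16-M, while the other was above background on 3 M0-p20 arrays and had means of -3.56 in B16-M and -3.85 in M0-p20. Cdh2 (7.81 ± 0.32), Cd9 (5.34 ± 0.21), Cd81 (4.88 ± 0.13), Cd151 (2.66 ± 0.15) and Cd44 (2.23 ± 0.14) were also higher in B16-M, on the log2 scale. The Mcam call (0.75 ± 0.29, adjusted p 0.0337) was lost without B16-M replicate 0 or 1 or M0-p20 replicate 0 or 1 (adjusted p up to 0.161).

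Itga2b, the alpha chain of the fibrinogen receptor, Itgb7, Selplg, Itgax and Icam1 were above background on no B16-M array, and were at least 234-fold, 167-fold, 137-fold, 7.69-fold and 4.45-fold higher in M0-p20. Itgb2 (-5.79 ± 0.41), Icam2 (-4.47 ± 0.22), Itgb4 (-4.07 ± 0.19) and Itgal (-2.95 ± 0.29) were lower in B16-M. Itgb4, the beta4 chain of epithelial hemidesmosomes, read between 2.92 and 3.83 in M0-p20, and Cdh11, a mesenchymal cadherin, between 3.64 and 3.91, beside -0.78 to -0.44 and 0.88 to 1.73 in B16-M. The 5 tested receptors that did not pass were Itga4, Itga10, Itgb3, Cdh13 and Cd82, with log2 fold changes between -0.41 and 0.11.

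**Figure D5:**
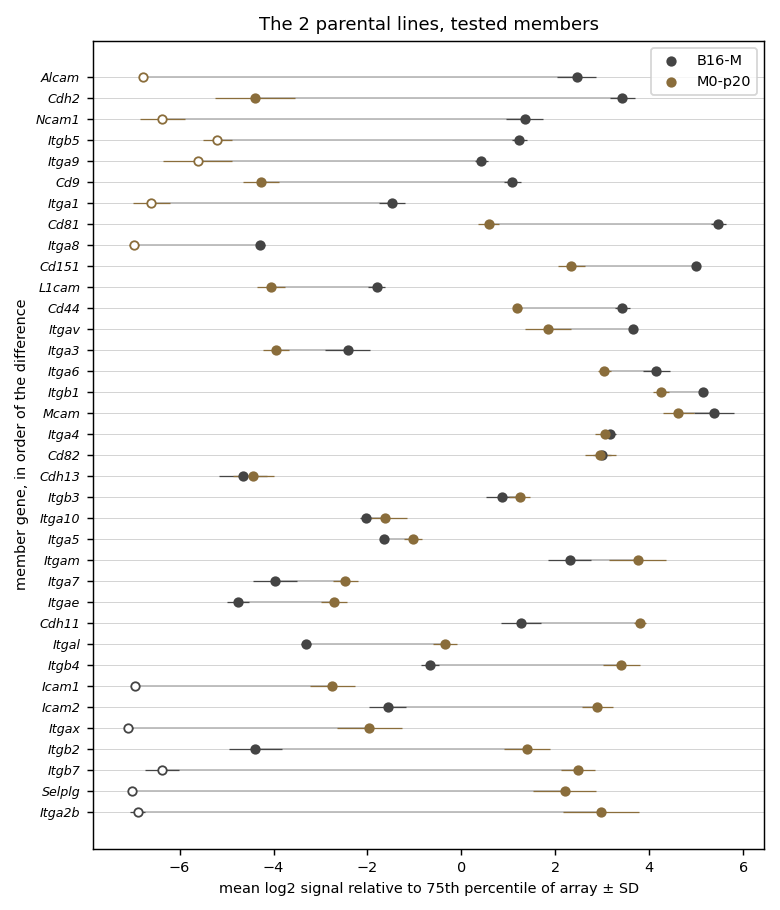
Mean log2 signal relative to the 75th percentile (horizontal axis, bars are SD over 3 B16-M and 4 M0-p20 arrays) of the 36 receptors tested in both parental lines, ordered by the difference and open where no array of the line was above background. Alcam at the top is at 2.46 in B16-M and -6.78 in M0-p20, and Itga2b at the bottom at -6.89 and 2.97.

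The pathway lists were counted in the same comparison, where 25.5% of all genes were higher in B16-M and 31.2% higher in M0-p20. Of 28 tested genes of the integrin adhesion complex, 13 were higher in B16-M and 8 in M0-p20: the kindlin Fermt2 was at least 393-fold and the parvin Parva at least 120-fold higher in B16-M, and their leukocyte relatives Fermt3 and Parvg at least 161-fold and 153-fold higher in M0-p20. All 7 cadherin complex genes called, of 8 tested, were higher in B16-M, led by the nectins Nectin2 (6.20) and Nectin3 (at least 15.8-fold). Among 20 tested ligands 13 were higher in B16-M, including fibronectin (Fn1, at least 37.5-fold), and 4 in M0-p20, including Spp1 (-4.92). Of 21 other tetraspanins tested 13 were higher in B16-M and 7 in M0-p20. In each list the count higher in M0-p20 was near or under the share over all genes.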

How the data were processed

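RNA of 24 samples was hybridised to 1-colour Agilent arrays on 3 slides. The authors deposited scanner intensity values from Agilent Feature Extraction 10.7.3.1 (named in the submitters' processing notes), already background-corrected, and ran their own statistics in Genespring. The series value table held the same signals on 24 of 24 arrays. Here the processed intensity was taken to log2 and the 75th percentile of each array subtracted. Outlier and control spots were left out, spots of a probe averaged, and the brightest probe of each gene used. A gene was tested where its brightest probe was well above background on 3 arrays or more of the fit. In the fit of both models these had to be 3 arrays or more of either model. A gene above background in 1 group only thus entered through that group. Tests were run in limma 3.58.1 (R 4.3.3, figures in Python 3.11.15) with Benjamini-Hochberg adjustment over all genes at 0.05. The melanoma lines, the leukemia lines and both together were fitted separately, so comparisons with B16-M share its arrays, as do those with B16-D. B16-D replicate 2 was left out of these fits. A difference against a line not above background is given as a lower bound, against the higher, per array, of the dimmest signal above background and the probe's own. Receptors past the threshold in a dormancy comparison were given with every array, and the others by range and count. Same-numbered arrays deviated together in B16-D-733 and B16-M (r 0.296 to 0.783) and in B16-D-739 and B16-M (r 0.527 to 0.791), the only comparisons with 3 or more same-numbered pairs in which every r was above 0.1. Alternatives were normexp with offset 50 (on the median signal, as the files used hold no mean signal), quantile normalization, other filters, the mean of all probes, slide or number as a block, only the lines compared and leaving out each array. The fits with B16-D replicate 2 and slide as a block together, with the title date as a block and with replicates 1 and 3 of B16-D-733 as 1 array were chosen after seeing the data. The members and gene lists were chosen with earlier results of these data known. Promoter windows came from RefSeq (GRCm38.p6), which listed them for 28 of the 45 genes. The number of arrays limits the precision.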

Additional observations from a re-analysis of the deposited data

Results flagged for a closer look

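In 62 groups of 4 arrays (a receptor in a line), 7 held an array far from the others, where chance gives about 1 in 20. On M0-p20 replicate 0, Itga4 read 3.34 (others 2.91 to 2.98), Itgav 1.13 (others 2.01 to 2.14) and Icam1 -3.46 (others -2.59 to -2.44). On B16-D-733 replicate 2, Itga10 read -1.05 (others -1.68 to -1.58), Itgal -4.20 (others -3.20 to -3.05) and Ncam1 0.44 (others all 0.23), and on replicate 0 Itgav read 3.59 (others 3.28 to 3.32).

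The dormancy change differed between B16-D and J365-p20 for Cd82, by -1.64 ± 0.26 (adjusted p 0.000677 in limma). For Itgax the fitted difference was 4.37 (adjusted p 1.13e-05 in limma), a size that background readings set, as no B16-M, B16-D or J365-p20 array was above background.

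On B16-D replicate 2, the array left out, 11 receptors were above background that were so on no other B16-D and on no B16-M array: Itga2, Itga2b, Itga11, Itgb7, Itgb8, Cdh1, Cdh3, Icam1, Vcam1, Epcam and Selplg, with log2 signals between -5.02 and -1.21. Of all spots, 90.35% were well above background on this array and 46.0% to 55.8% on the others. The same count was not made over all genes, so it is not a result particular to the receptors.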

How the results depend on the processing

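No value of a named receptor changed direction under an alternative: 1017 recomputed log2 fold changes stayed past the threshold and 104 did not. Of the 1017, 60 came from the series value table, which held the same signals and so could not differ. The 31 calls between the parental lines were each recomputed under 18 alternatives, and only Mcam lost its call under any of them. Losses in the dormancy comparisons are therefore better read from the counts by comparison that follow. In B16-D against B16-M (4 receptors called) 2 were called with no filter on dim probes, 2 with B16-D replicate 2 included, 2 with replicates 1 and 3 of B16-D-733 as 1 array and 0 with only these lines in the fit (87 of all genes called, 2101 at an unadjusted p under 0.05). In B16-D-733 against B16-M (5 called) 8 were called with slide as a block. In B16-D-735 against B16-M (6 called) 3 were called with only these lines, and in B16-D-739 against B16-M (3 called) 1 with only these lines and 5 with the replicate number as a block. The single call of B16-D-733 against B16-D became 0 with normexp, quantile normalization, the replicate block, B16-D replicate 2 included or only these lines. In B16-D-735 against B16-D (7 called) 4 were called with only these lines, and in J365-p20 against M0-p20 (1 called) 0 with normexp. With the number as a block, 56 named values kept their call and 4 lost it: Icam2 in B16-D against B16-M and in B16-D-733 against B16-D, and Cd81 and Itga5 in B16-D-735 against B16-D, where Cd9 and Itga1 were gained and both same-numbered pairs correlated (r 0.236 and 0.627). With the title date as a block 56 kept their call and 3 lost it, and with replicates 1 and 3 of B16-D-733 as 1 array 21 kept it and 5 lost it, among them Itgav in B16-D-735 against B16-M.

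Leaving out 1 array at a time gave 2 to 3 calls in B16-D, 3 to 5 in B16-D-733, 4 to 5 in B16-D-735 and 2 to 3 in B16-D-739 against B16-M, and 0 to 1, 5 to 9 and 0 to 0 in the same second-generation lines against B16-D. It gave 6 to 10 over the melanoma lines at once, 1 to 1 in J365-p20, 30 to 31 between the parental lines and 2 to 3 for the difference of dormancy changes. Signals near background limit Itgax, Cdh1, Itgae and Itgb2.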
